A study of Mus musculus with 2 samples.

Results

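The mitosis and G2/M genes are a set of 42 genes whose products drive cells through the end of G2, the assembly of the spindle, the separation of chromosomes and cytokinesis. They were chosen by name, from knowledge of the cell cycle and with earlier results of these data known. Every probe was taken whose symbol in the platform's annotation was one of the 42. This gave 40 genes with 1 probe each, out of 19318 genes with a named probe. No probe carried the names Ccnb1 and Kif2c, so these genes were not analysed here. Expression was measured in liver RNA of 24-week-old mice on 2 single-colour (Cy5) microarrays. The first sample was liver of Twist2-Cre/A20fl/fl mice, labelled CKO, which carry floxed A20 alleles together with Twist2-Cre; the second was liver of Twist2-Cre mice, the control, which carry the same Cre and for which the labels name no floxed allele. Twist2-Cre is known to recombine in mesenchymal lineages, so a whole liver keeps many cells with intact A20, the ubiquitin-editing enzyme encoded by Tnfaip3 that restrains NF-kB signalling. How many animals contributed to each RNA, and whether any were pooled, is not stated in the labels.

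In an adult liver most hepatocytes rest outside the cell cycle, and the transcripts of mitosis are scarce. They appear during regeneration after injury and in dividing non-parenchymal or infiltrating blood cells. The genes of this set are largely switched on together late in the cycle: a repressor complex called DREAM keeps them silent in resting cells, and the activators B-Myb and FOXM1 take its place in G2. Both act through a promoter element called the cell cycle genes homology region (CHR), with the core TTTGAA, often with CCAAT boxes bound by NF-Y lying upstream of it.

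The promoters of 4 members are shown first because they carry these elements and because the genes behaved differently on the arrays: Cdc20, Cdk1 and Top2a had higher signal on the CKO array, while Ube2c had nearly equal signal on both. Each line holds the 100 bases directly before the annotated start, from RefSeq (GRCm38.p6), read 5′ to 3′ on the gene's strand, with matches to TTTGAA or CCAAT on either strand in capitals.
Cdc20 (chr4:118437344-118437443, minus strand): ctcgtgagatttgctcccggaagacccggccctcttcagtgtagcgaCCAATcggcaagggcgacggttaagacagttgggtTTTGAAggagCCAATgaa
Cdk1 (chr10:69352913-69353012, minus strand): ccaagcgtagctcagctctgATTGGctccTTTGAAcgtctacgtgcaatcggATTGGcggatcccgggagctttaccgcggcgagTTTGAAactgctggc
Top2a (chr11:99024190-99024289, minus strand): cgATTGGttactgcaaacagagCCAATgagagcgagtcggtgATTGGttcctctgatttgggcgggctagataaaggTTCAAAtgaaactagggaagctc
Ube2c (chr2:164769829-164769928, plus strand): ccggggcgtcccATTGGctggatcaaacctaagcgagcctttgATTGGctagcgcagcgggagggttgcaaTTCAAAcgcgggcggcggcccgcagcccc

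The CHR match closest to the start began at base -18 in Cdc20, -15 in Cdk1, -23 in Top2a and -29 in Ube2c, counted from the annotated start. Many members hold such matches, before or after the start, and their selection did not use them. Promoter windows of 250 bases before to 50 after the start were found for 35 of the 40 measured members. Within 50 bases of the start on either side, 24 of these 35 (68.6%) held TTTGAA or its reverse complement, against 4.94% of all 32851 promoters in the table and 4.51% of the 15159 genes with a named probe. Over the whole window the shares were 74.3% of members, 17.9% of all promoters and 17.4% of genes with a named probe. CCAAT, on either strand, occurred in the window of 27 members (77.1%), in 37.4% of all promoters and in 41.9% of genes with a named probe. Both motifs occurred in 23 members (65.7%) and in 6.95% of all promoters, as of genes with a named probe. Their letters overlapped in 1 member. A match is a run of letters and not a measured binding site.

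**Figure D1:**
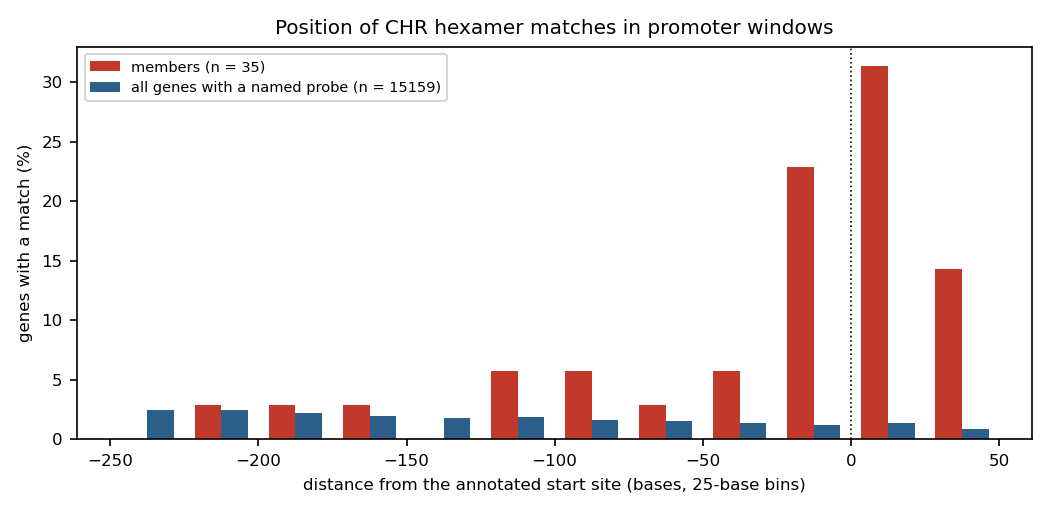
Share of genes (%) with a CHR hexamer match, on either strand, in each 25-base bin of the promoter window, by distance from the annotated start site, for the 35 members (left bar of each pair) and the 15159 genes with a named probe (right bar). Among members the share reached 22.9% and 31.4% in the bins directly before and after the start, where 1.17% and 1.33% of all genes had one.

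On the arrays, the clearest difference was one of detection. A gene counted as above background if its signal was over a threshold set at the mean plus 2 SD of the array's 384 blank spots. By this rule 37 of the 40 members were above background on the CKO array, against 23 on the control array; for all genes the shares were 75.6% and 75.7%. Members detected on the CKO array only numbered 14, while 2.4% of all genes fell in that class. No member was detected on the control array only (2.48% of all genes). Bub1, Cdca8 and Cenpe were above background on neither array. By a stricter rule, above the array's highest blank spot (75.6 CKO, 71.8 control), 35 members passed in CKO and 21 in control. The shares of all genes under this rule were not computed.

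**Figure D2:**
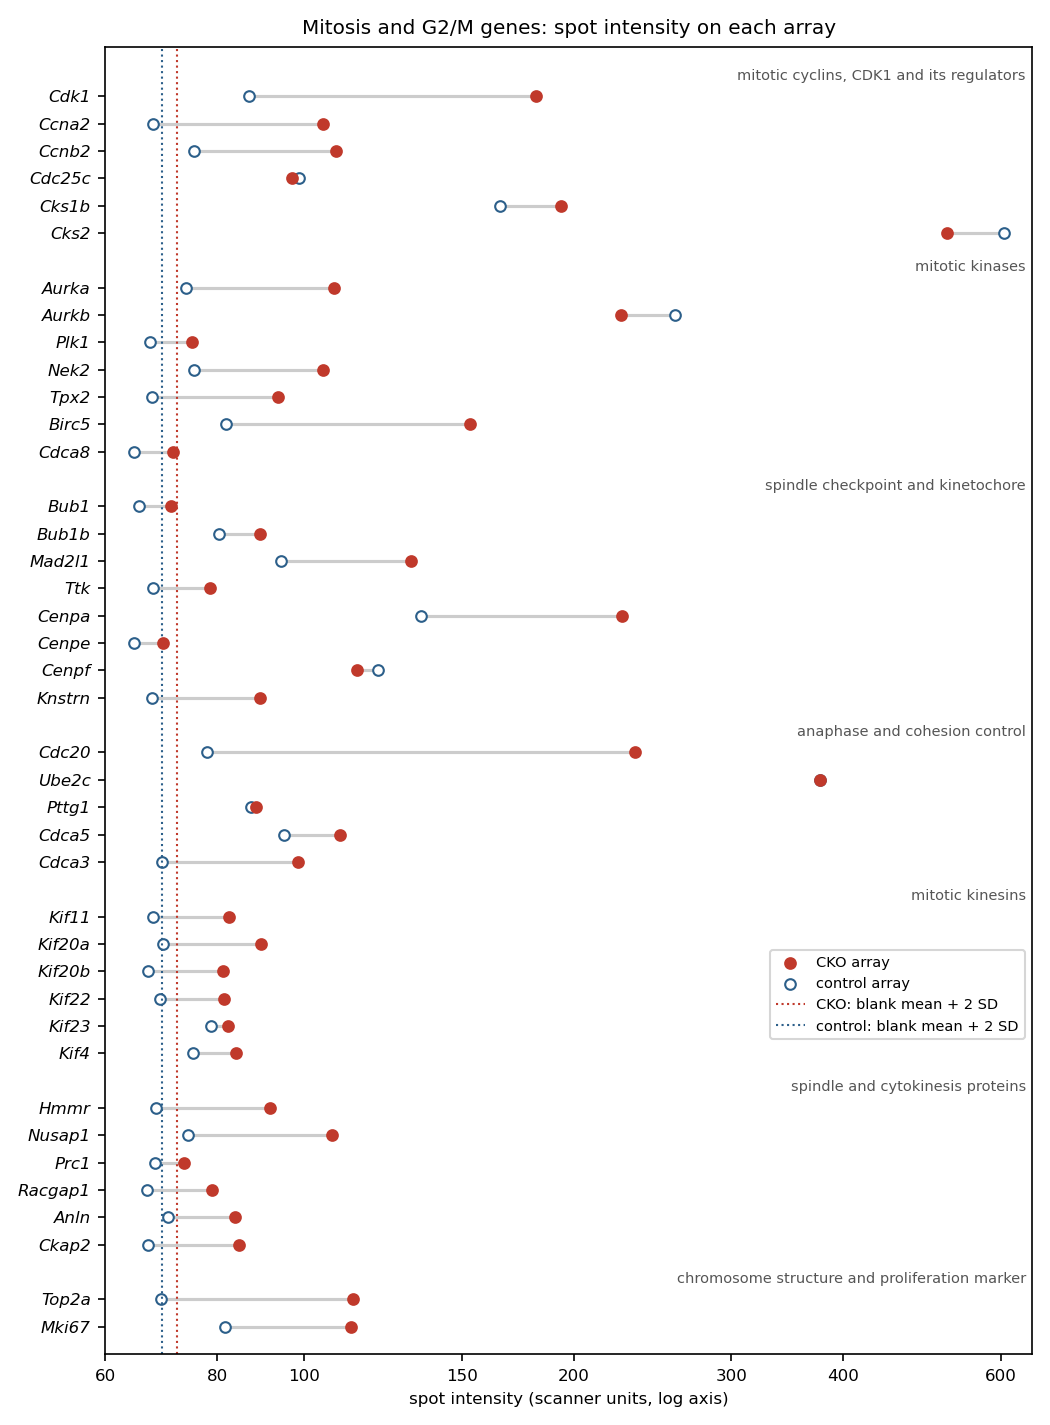
Spot intensity (scanner units, log axis) of the 40 members on the CKO array (filled) and the control array (open), grouped by role, with dotted lines at each array's blank mean plus 2 SD. In 14 genes only the CKO point lies above its line, while Cks2, Aurkb, Cenpf and, narrowly, Cdc25c and Ube2c have the brighter spot on the control array.

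The sizes of the differences depend on the scale, so 2 are given. The deposited intensities are linear values above background, in whole numbers, in which a gene near background can take any ratio. The normalized scale was computed from the scanner's spot intensities with an offset of 50, which holds ratios of dim genes close to 1; ratios on it are log2 of CKO over control. With 1 array per genotype there was no replicate, so no test was possible and no value carries an error between animals. As a guide to technical error only, probes of 1 gene differed by 0.13 in their log2 ratio (SD over 716 genes, pooled over all levels). In whole liver, fewer dividing cells and less of each transcript per cell cannot be told apart.

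On the normalized scale 34 of the 40 members had a positive ratio, with no filter on dim genes, and 43.9% of all genes did. The median ratio was 0.27 over the 40 members and -0.01 over all 19318 genes. Of the 23 members that passed the threshold on both arrays, 17 were higher and 6 lower in the CKO liver, where 42.2% of all 14143 genes that passed were higher. Their median was 0.25, against -0.02 for those genes. Higher by more than the probe SD were 15 members (12.2% of all genes), within it were 5, and lower by more than it were 3 (14.6% of all genes). At least 2-fold higher were Cdc20 and Cdk1, 2 of 23, against 0.636% of all genes, and 0 members were 2-fold lower (0.0778% of all genes). Among the deposited values, 26 members had one on both arrays: 20 were higher (36.7% of all genes) and 15 at least 2-fold higher (3.88% of all genes), with 0 at least 2-fold lower (1.19%).

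**Figure D3:**
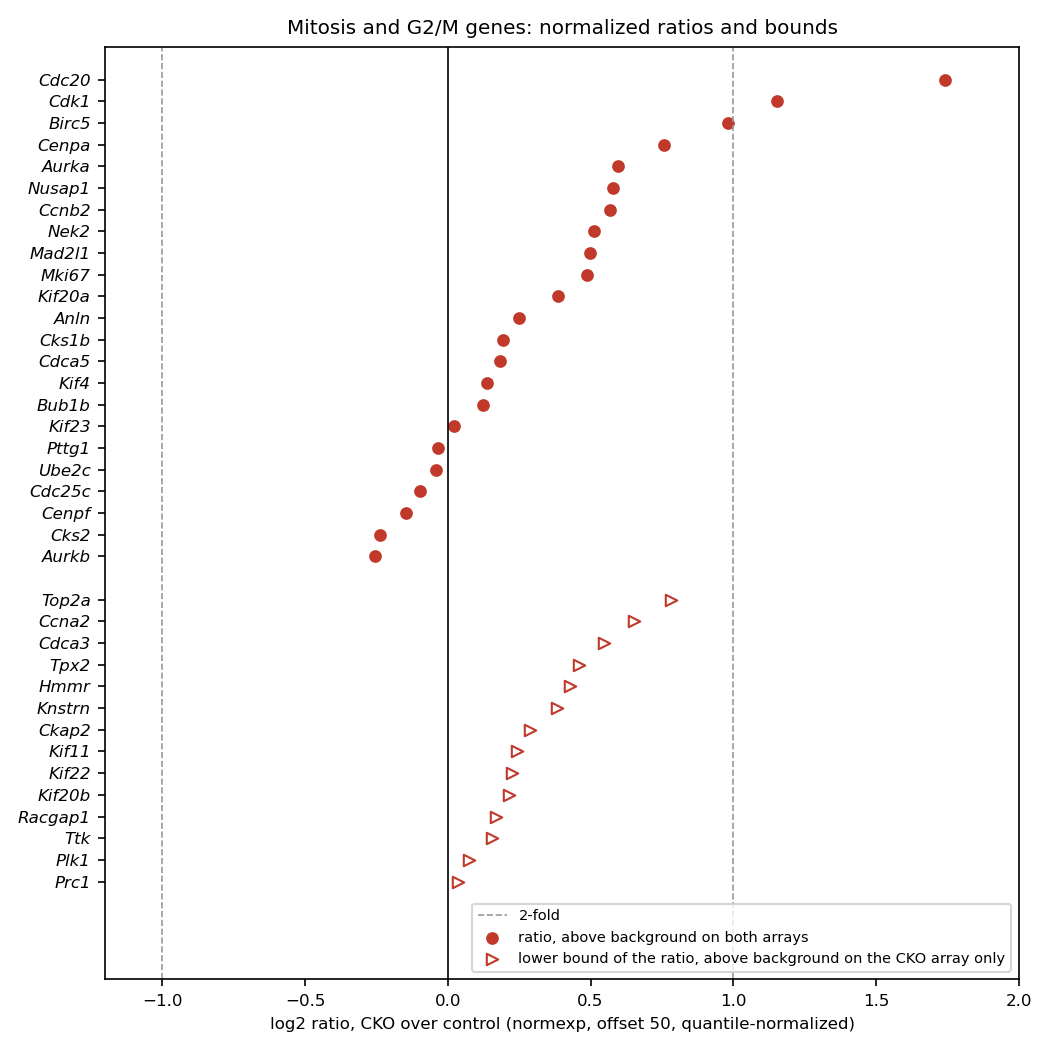
Normalized log2 ratio, CKO over control, of the 23 members that passed the threshold on both arrays (filled points) and the lower bound of that ratio for the 14 detected on the CKO array only (open triangles); dashed lines mark 2-fold. Ratios run from -0.25 for Aurkb to 1.74 for Cdc20, and the highest bound is that of Top2a. The detection filter fixes the direction of the bounds.

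The first role group holds CDK1, the kinase whose activation starts mitosis, and the proteins that bind or switch it. Cdk1 had a deposited intensity of 93 in the CKO liver and 17 in the control liver. Its spot stood 77.5 blank SDs above the blank mean on the CKO array and 16.9 on the control array, and its normalized ratio was 1.15 (2.22-fold). Cyclin A2, encoded by Ccna2 and active in S phase and G2, was detected on the CKO array only, with a deposited intensity of 29 and no control value listed. On the normalized scale it was at least 1.57-fold higher. Here and below, such a bound sets the CKO value against the gene's own control value. The dimmest normalized signal that passed the threshold on the control array is used instead where it is higher. The detection filter itself fixes the direction of such a bound, so that direction is no separate result. Ccnb2, which encodes a B-type cyclin that partners CDK1, had deposited intensities of 33 in the CKO liver and 7 in the control liver, a normalized ratio of 0.57. The other 3 genes of this group had smaller ratios, in both directions. Cdc25c, the phosphatase that removes the inhibitory phosphates of CDK1, had 23 in the CKO liver and 27 in the control liver (-0.10). The small CDK-binding proteins Cks1b and Cks2 went opposite ways. Cks1b had 102 in the CKO liver and 85 in the control liver (0.19). Cks2 had 374 in the CKO liver and 462 in the control liver (-0.24). The group thus held both a 2-fold difference and some of the lower values of the set.

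Among the mitotic kinases and their partners, the Aurora kinases differed in direction. Aurka, which acts at centrosomes and spindle poles, had deposited intensities of 32 in the CKO liver and 6 in the control liver (0.60). Tpx2, the spindle protein that activates Aurora A, was detected on the CKO array only and was at least 1.38-fold higher, with a deposited intensity of 20. Aurkb, the kinase of the chromosomal passenger complex, had 129 in the CKO liver and 165 in the control liver, and its ratio of -0.25 was the lowest of the 23. Its partner Birc5 (survivin) instead had 69 in the CKO liver and 13 in the control liver (0.98, just under 2-fold, but -0.20 with the scanner's local background column). Another subunit, borealin, encoded by Cdca8, was above background on neither array. Of the remaining kinases, Nek2, which separates centrosomes, had 29 in the CKO liver and 7 in the control liver (0.51). Plk1, required for centrosome maturation and for the exit from mitosis, was detected on the CKO array only, at a deposited intensity of 5, and was at least 1.05-fold higher. Plk1 was thus close to the limit of detection, and its bound says little about size.

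Genes of the kinetochore and the spindle checkpoint, which holds anaphase back until every chromosome is attached, were higher where they were well above background, with Cenpf as the exception and, with the scanner's local background column, Bub1b (-0.04). Cenpa, the histone H3 variant that marks centromeres, had deposited intensities of 130 in the CKO liver and 58 in the control liver (0.76). Mad2l1, the checkpoint protein that blocks CDC20, had 51 in the CKO liver and 23 in the control liver (0.50). Bub1b (BubR1) had 17 in the CKO liver and 11 in the control liver, a ratio of 0.12 that lay within the probe SD. The kinetochore protein Cenpf had 38 in the CKO liver and 46 in the control liver (-0.15). Knstrn, a spindle and kinetochore protein, and Ttk, the kinase that starts checkpoint signalling, were detected on the CKO array only. Knstrn was at least 1.30-fold higher with a deposited intensity of 17, and Ttk at least 1.11-fold with 8. Bub1, a checkpoint kinase, and Cenpe, a kinetochore motor, were not detectable on either array.

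The proteins that trigger the separation of sister chromatids included Cdc20, with the largest normalized ratio of the 23 genes, and others that were nearly equal on both arrays. Cdc20, the activator that directs the anaphase-promoting complex to securin and cyclin B, had a deposited intensity of 136 in the CKO liver and 9 in the control liver. Its spot stood 113.9 blank SDs above the blank mean on the CKO array and 9.14 on the control array. The normalized ratio was 1.74 (3.35-fold), and the deposited values differed 15.1-fold. Ube2c, the ubiquitin-conjugating enzyme that works with the same complex, had 254 in the CKO liver and 266 in the control liver (-0.04). Securin, encoded by Pttg1 and destroyed at anaphase, was also nearly equal, with 16 in the CKO liver and 17 in the control liver (-0.04). Cdca5 (sororin), which protects cohesion until anaphase, had 33 in the CKO liver and 24 in the control liver (0.18). Cdca3, a cytosolic protein that promotes mitotic entry, had 24 in the CKO liver and 2 in the control liver. Its control spot lay just under the threshold, and it was at least 1.46-fold higher.

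The kinesins are motor proteins that build the spindle and move chromosomes, and all 6 measured ones were dim. Kif20a, needed for cytokinesis, had deposited intensities of 17 in the CKO liver and 2 in the control liver (0.39). Its control spot lay just over the threshold, 2.055 blank SDs above the blank mean. Kif11 (Eg5), which pushes the spindle poles apart, had 11 in the CKO liver with no control value listed, and was at least 1.18-fold higher. Kif22, a chromosome-binding kinesin, was at least 1.17-fold higher (10 in the CKO liver and 2 in the control liver), and Kif20b at least 1.16-fold, with 10 in the CKO liver. The chromokinesin Kif4 had 12 in the CKO liver and 7 in the control liver (0.14). Kif23, which bundles microtubules of the central spindle, had 11 in the CKO liver and 10 in the control liver (0.02). Of the 3 that passed the threshold on both arrays, 3 were higher on the normalized scale, against 42.2% of all genes. Among these, Kif23 lay within the probe SD and Kif4 at its edge. Kif23 had -0.01 with the scanner's local background column. The detection filter fixed the direction of the 3 detected on the CKO array only.

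Genes of spindle and cytokinesis proteins were mostly below detection on the control array. Of 6 genes, 6 were above background on the CKO array, against 2 on the control array (75.6% and 75.7% of all genes). Nusap1, a microtubule-bundling protein of the spindle, had deposited intensities of 32 in the CKO liver and 6 in the control liver (0.58). Anln, the anillin scaffold of the contractile ring, had 12 in the CKO liver and 3 in the control liver (0.25). Its control spot was near the threshold, 2.78 blank SDs above the blank mean. Hmmr, a spindle assembly factor and hyaluronan receptor, was at least 1.35-fold higher with 19 in the CKO liver, and Ckap2, a microtubule-stabilizing protein, at least 1.22-fold with 13. Racgap1, the partner of Kif23 in the centralspindlin complex, was at least 1.12-fold higher with 8 in the CKO liver. Prc1, the crosslinker of the central spindle, was at least 1.02-fold higher with 4 in the CKO liver, at the edge of detection. None of these 4 had a control value in the deposited table.

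The remaining members are widely used markers of dividing cells. Top2a, the topoisomerase that untangles sister chromatids, had a deposited intensity of 36 in the CKO liver and 2 in the control liver, where its spot was not above background. Its spot stood 30.5 blank SDs above the blank mean on the CKO array and 1.78 on the control array, and it was at least 1.72-fold higher, the highest bound among the members. Mki67, which coats mitotic chromosomes and encodes the Ki-67 antigen, had 36 in the CKO liver and 12 in the control liver (0.49). Summed over the 40 members, spot intensity above the blank mean was 2294.6 on the CKO array and 1498.9 on the control array, a ratio of 1.53, while over all genes the same ratio was 0.984. The bright spots of Cks2 and Ube2c, neither of them higher, make up much of both sums.

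Mitotic genes outside the set, listed with earlier results of these data known, were also mostly higher in the CKO liver. Of 36 other genes for kinetochores, condensin, motors and the spindle, 33 had a probe; 30 were above background on the CKO array, against 22 on the control array (75.6% and 75.7% of all genes). Detected on the CKO array only were 8 (2.4% of all genes), and on the control array only 0 (2.48%). Of the 22 on both arrays 19 were higher and 3 lower (42.2% of all genes were higher). Their median ratio was 0.14, and 0.02 with the local background column. In the deposited values 11 of 23 were at least 2-fold higher (3.88% of all genes). On the normalized scale the list's 1 gene past 2-fold was Stmn1, encoding the microtubule-destabilizing protein stathmin, with deposited intensities of 303 in the CKO liver and 70 in the control liver (1.61). The condensin subunits Smc4 (136 in the CKO liver and 78 in the control liver, 0.56) and Ncaph (294 in CKO and 261 in control, 0.18) and the kinetochore protein Spc24 (114 in CKO and 72 in control, 0.45) were higher by more than the probe SD.

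Genes of the preceding phase were also mostly higher. Of 30 genes of G1/S and DNA replication, 26 were above background on both arrays. Of these, 22 were higher and 4 lower (42.2% of all genes were higher). Their median ratio was 0.15, and 0.02 with the local background column. On the normalized scale 0 of the 26 were past 2-fold, while in the deposited values 5 of 26 were at least 2-fold higher (3.88% of all genes). The replication clamp Pcna had deposited intensities of 363 in the CKO liver and 293 in the control liver (0.31). The helicase subunit Mcm7 had 124 in the CKO liver and 116 in the control liver (0.08), and the licensing inhibitor Gmnn had 149 in the CKO liver and 136 in the control liver (0.12). Thymidine kinase, encoded by Tk1, had 180 in the CKO liver and 205 in the control liver (-0.13). In this list 1 gene was detected on the CKO array alone (2.4% of all genes) and 0 on the control array alone (2.48%).

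Lists of regulators and of stable machinery of mitosis had medians near 0, with members on both sides. For comparison, 42.2% of all genes above background on both arrays were higher. The list of regulators of the G2/M programme and of ploidy had 5 of 11 genes higher and a median of -0.01. Its best-detected genes were Rb1 (315 in the CKO liver and 368 in the control liver, -0.16), Rbl2, a pocket protein of DREAM (51 in CKO and 54 in control, -0.05), and the NF-Y subunits Nfyb (121 in CKO and 124 in control, -0.02) and Nfyc (119 in CKO and 142 in control, -0.18). Rbl1, another DREAM pocket protein, was higher (30 in CKO and 12 in control, 0.40). Mybl2, which encodes B-Myb, was above background on neither array, and no probe was named Foxm1. CDK inhibitors and checkpoint genes had 8 of 15 higher and a median of 0.01, with Cdkn2c (99 in the CKO liver and 88 in the control liver, 0.12), Gadd45a (63 in CKO and 65 in control, -0.04), Ccng1 (162 in CKO and 136 in control, 0.21) and Mdm2 (89 in CKO and 76 in control, 0.16). Subunits and regulators of the anaphase-promoting complex, the machine that CDC20 activates, had 7 of 16 higher and a median of -0.02. Among them were Anapc13 (853 in the CKO liver and 1053 in the control liver, -0.22), Anapc5 (588 in CKO and 563 in control, 0.12), Anapc4 (347 in CKO and 376 in control, -0.06) and Cdc26 (194 in CKO and 253 in control, -0.30), and Cdc23 was the lowest (105 in CKO and 154 in control, -0.40). On the normalized scale none of these 3 lists had a gene past 2-fold. In the deposited values 1 of 11 regulators and 2 of 16 CDK inhibitor genes were at least 2-fold higher (3.88% of all genes). None was 2-fold lower.

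**Figure D4:**
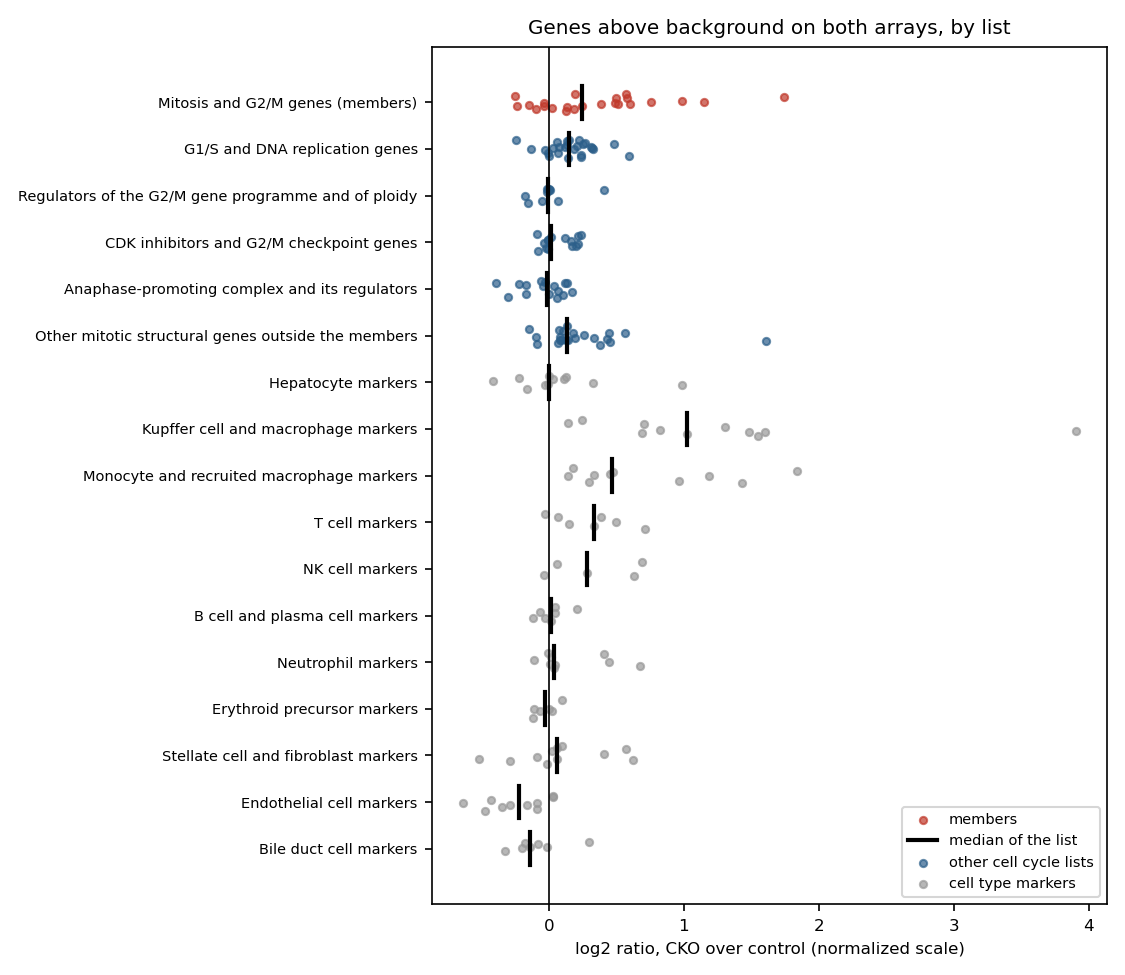
Normalized log2 ratio, CKO over control, of genes above background on both arrays (points; vertical scatter only separates them) for the members, 5 other cell cycle lists and 11 lists of cell type markers, with black bars at each list's median. The members' median is 0.25, that of the Kupffer cell list 1.02, and that of the hepatocyte list 0.00.

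Markers of macrophages, monocytes, T cells and NK cells were also mostly higher in the CKO liver. For comparison, 42.2% of all genes above background on both arrays were higher. Kupffer cell and macrophage markers were higher in 11 of 11 genes above background on both arrays, with a median ratio of 1.02; their summed spot intensity above blank was 8179.5 on the CKO array and 2409.4 on the control array. Those of monocytes and recruited macrophages were higher in 10 of 10 (median 0.47, summed 4268.5 on the CKO array and 1281.5 on the control array). Itgam of that list was above background on neither array. T cell markers were higher in 6 of 7 (median 0.33, summed 188.7 on the CKO array and 58.4 on the control array), with Cd3e above background on neither. NK cell markers were higher in 4 of 5 (median 0.28, summed 196.1 on the CKO array and 64.7 on the control array), with Ncr1 and Klrb1c above background on neither. With the local background column the median was 0.30 for Kupffer cell, 0.24 for monocyte, 0.054 for T cell and 0.0014 for NK cell markers. The part of these cells in the members' values was not tested.

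On the normalized scale, markers of the remaining cell types had medians closer to 0. Of all 14143 genes above background on both arrays, 5963 (42.2%) were higher and 8166 lower. B and plasma cell markers were higher in 4 of 7 genes (median 0.02, summed 530.4 on the CKO array and 525.9 on the control array). Sdc1 (322 in CKO and 350 in control, -0.07) made up most of both sums, which thus say little of the other genes. Neutrophil markers were higher in 7 of 9 (median 0.04, summed 746.7 on the CKO array and 640.4 on the control array). Their median was 0.415 in the deposited values, and Ly6g and Retnlg made up most of both sums. Among them S100a9 (50 in CKO and 15 in control, 0.67) and S100a8 (66 in CKO and 36 in control, 0.45) were higher, while Ly6g (345 in CKO and 356 in control, 0.0037) and Retnlg (112 in CKO and 125 in control, -0.11) were equal within the probe SD. Erythroid precursor markers were higher in 3 of 6 (median -0.03, summed 130.2 on the CKO array and 126.1 on the control array), with Rhag, Rhd and Slc4a1 above background on neither. Endothelial markers were lower in 8 of 10 (median -0.22), bile duct markers lower in 6 of 7 (median -0.14), and stellate cell and fibroblast markers higher in 7 of 11 (median 0.06). The last list held genes that differed both ways: the collagen genes Col1a2 (114 in CKO and 59 in control, 0.62) and Col3a1 (212.5 in CKO and 91.5 in control, 0.57) were higher, and Dcn (918 in CKO and 1387 in control, -0.52) and Ecm1 (633 in CKO and 825 in control, -0.29) were lower. Hepatocyte markers bore out the tissue label, with Alb at 36770 in the CKO liver and 37445 in the control liver, and were split evenly (5 higher, 5 lower and a median of 0.00 over 11 genes). Tnfaip3 had deposited intensities of 38 in the CKO liver and 41 in the control liver (-0.07); which part of the transcript its probe reads is not known, so this value does not check the label.

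The median ratio of the members stayed positive on every scale tried, but its size varied. With an offset of 16 their median ratio was 0.55 with 6 genes at least 2-fold higher (1.28% of all genes). With plain subtraction of the blank mean it was 1.14. There 12 of 23 genes were at least 2-fold higher (3.05% of all genes) and 0 at least 2-fold lower (0.594%). Against the scanner's local background column, which follows the spot's own signal, the median was 0.049 with 14 higher and 9 lower. With that column 0 of 23 members were at least 2-fold higher, against 3.05% of all genes. Likewise 0 were at least 2-fold lower, against 1.39% of all genes. Cdc20 (0.997) and Cdk1 (0.41) were no longer past 2-fold there, and Birc5 had the opposite sign (-0.20).

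**Figure D5:**
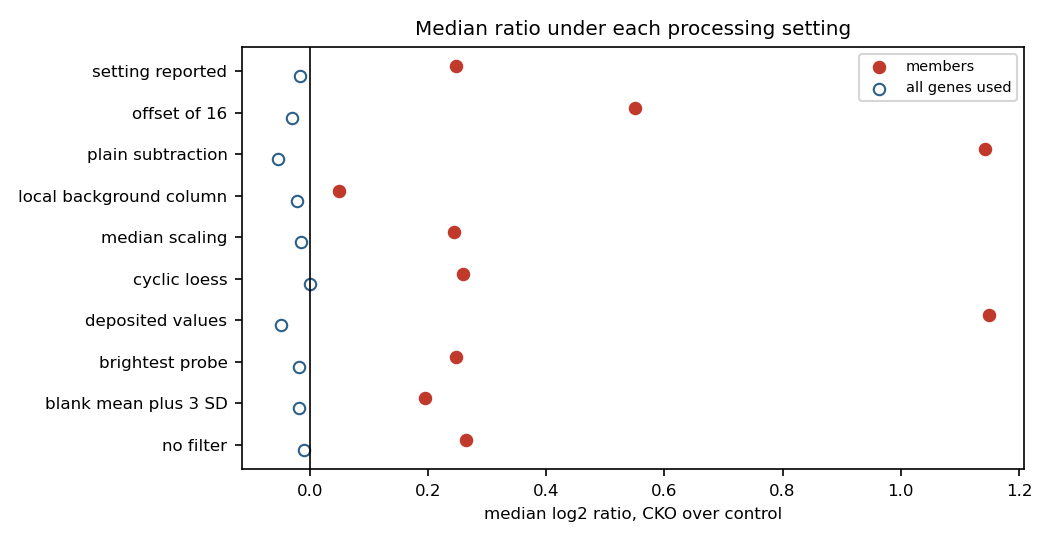
Median log2 ratio, CKO over control, of the members (filled) and of all genes used (open) under each processing setting. The members' median lies between 0.049 with the local background column and 1.15 in the deposited values, and above that of all genes in each of the 10 settings.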

How the data were processed

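Liver RNA of 1 CKO and 1 control sample, grouped by the genotype in the labels, was compared on single-colour arrays. Per the file headers, the scanner files hold a median intensity per spot, and one for the local background around it, at 635 nm, combined from scans at several gains. No source used here says how the authors made the deposited intensity table. Tested on the values, each entry equals the difference between spot intensity and blank mean, multiplied by 0.825 (CKO) or 0.859 (control). This held to within 1.87 units.

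Spots not flagged as good (0 on the CKO array, 4 on the control array) were left out. Intensities were corrected with normexp (limma 3.58.1, R 4.3.3) against the blank mean (69.3 CKO, SD 1.45; 67.2 control, SD 1.17) with an offset of 50, quantile-normalized and converted to log2; probes of 1 gene were averaged. The local background column was an alternative only, since its log2 correlated with that of the spot (r = 0.972 CKO, 0.988 control). The number of arrays limits the precision. Names came from the platform annotation, which gave 1 symbol for 20686 of 23469 probes; the others are unnamed here. The procedure was tested on simulated arrays. Alternatives changed the offset, background, scaling, source, probe rule and filter.

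Members and lists were chosen with earlier results of these data known. All members could be named; of other lists, the genes past 2-fold and the 4 of highest mean level on both arrays; list genes named for absent signal, and Rbl1, Cdc23 and Tnfaip3, were chosen after their values were seen.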

Additional observations from a re-analysis of the deposited data

How the results depend on the processing

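The members' median ratio stayed positive under all 9 alternatives, between 0.049 and 1.15. The number of members at least 2-fold higher lay between 0 and 12, with 0 at least 2-fold lower throughout. Of all genes used, between 0.0566% and 1.39% were at least 2-fold lower, so a count of 0 is close to that share. The median and the count were 0.55 and 6 with an offset of 16, 1.14 and 12 with plain subtraction, and 1.15 and 12 in the deposited values. They were 0.049 and 0 with the local background column. Of the 14143 genes above background on both arrays, 1.28%, 3.05%, 3.51% and 3.05% were at least 2-fold higher, in the same order. The offset's own construction shrinks the ratios of dim genes. Median scaling (0.24), cyclic loess (0.26) and the brightest probe (0.25) moved the members' median by less than the probe SD. So did a threshold of 3 blank SDs (0.19 over 21 members) and no filter (0.27 over 40 members). With cyclic loess 3 members were at least 2-fold higher, against 0.714% of all genes. Birc5 (-0.20), Bub1b (-0.04) and Kif23 (-0.01) had the opposite sign with the local background column, and the cause was not tested. No other member above background on both arrays changed sign in any alternative. The bounds of members detected on the CKO array only were not recomputed under the alternatives.

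Medians of the other lists moved mainly with the background. With plain subtraction they were 0.32 for G1/S genes, 0.17 for CDK inhibitors, 0.75 for other mitotic genes, 1.45 for Kupffer cell, 1.28 for monocyte, 1.01 for T cell, 1.37 for NK cell, 0.41 for neutrophil, 0.23 for stellate cell, -0.46 for endothelial and -0.30 for bile duct markers. In the deposited values they were, in the same order, 0.38, 0.17, 0.76, 1.41, 1.25, 1.04, 1.37, 0.41, 0.32, -0.46 and -0.29. An offset of 16 gave 0.29 for other mitotic genes, 1.16 for Kupffer cell, 0.75 for monocyte, 0.63 for T cell and 0.60 for NK cell markers. The local background column gave 0.30 for Kupffer cell, 0.24 for monocyte, 0.054 for T cell and 0.0014 for NK cell markers. The brightest probe gave 0.72 for monocyte markers, and 3 blank SDs gave 0.46 for NK cell markers. The medians of the regulator, CDK inhibitor, anaphase-promoting complex, B cell, erythroid and hepatocyte lists took either sign across the alternatives; that of the hepatocyte list was -0.13 with the local background column. With that column the medians of the G1/S and other mitotic lists were 0.02 each. The other 134 summary values moved by less than the probe SD or stayed within 1.5 times the count. The low signal of most members over background limits the precision of every ratio. No paired analysis was possible because each genotype had 1 array.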
